A study of Homo sapiens with 3 samples.

Results

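The NF-kB subunits and their feedback inhibitors were examined in H660 cells, a human neuroendocrine prostate cancer line, after inhibition of the chaperone HSP70 with JG231. The 10 genes, NFKBIA, NFKBIB, NFKBIE, NFKB1, NFKB2, REL, RELA, RELB, TNFAIP3 and BIRC3, were selected by symbol, and all 10 were found once each among the 58735 rows of the expression table. The data consist of 3 RNA-seq libraries from parental H660 cells, 1 for the vehicle DMSO and 1 for each JG231 dose, 2.5 μM and 5 μM, all treated for 24 h. The cells in all 3 conditions came from the same line, whose culture medium contained hydrocortisone and beta-estradiol, and JG231 is an allosteric inhibitor designed to hold HSP70 in its ADP-bound state. With 1 library per condition there was no replicate error, so no standard deviation or p-value is given and every difference compares libraries.

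NF-kB transcription factors are dimers of the Rel family proteins RELA, RELB and REL and of the mature forms of NFKB1 and NFKB2. In resting cells the IκB proteins, encoded by NFKBIA, NFKBIB and NFKBIE, hold the dimers in the cytoplasm. Receptors for TNF, interleukin-1 and bacterial products activate the IκB kinase, IκB is then ubiquitinated and degraded by the proteasome, and the freed dimers enter the nucleus. Among the genes that NF-kB switches on are NFKBIA itself and the ubiquitin enzymes TNFAIP3 (A20) and BIRC3 (cIAP2), so that the response limits or reshapes its own signal. A slower branch runs through the kinase NIK and the processing of NFKB2 and acts mainly through RELB.

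The promoters of these genes are shown because a set of genes that code for a transcription factor and its inhibitors can carry that factor's own binding motif. RefSeq promoter windows on GRCh38.p14, from 250 bases before to 50 bases after a start site, were found for 8 of the 10 genes. No window was used for NFKBIE and RELB. The NF-kB consensus, or κB motif, was searched on both strands, and overlapping matches were counted as 1 site. It occurred in 7 of the 8 genes, at 12 separate sites in 8 of their 13 windows, while 7.09% of 27305 genes with windows of the same length and 5.91% of 35116 windows held it. RELA was the gene with windows and no match. In the following stretches of 30 bases, written along the strand of the gene, the capitals mark 1 match to the motif.
NFKBIA: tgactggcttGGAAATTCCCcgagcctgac
NFKBIB: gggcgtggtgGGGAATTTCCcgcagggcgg
NFKB1: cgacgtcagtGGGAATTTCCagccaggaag
NFKB2: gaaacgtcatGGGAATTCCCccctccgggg
REL: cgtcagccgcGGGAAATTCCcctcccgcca
TNFAIP3: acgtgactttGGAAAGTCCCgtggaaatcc
BIRC3: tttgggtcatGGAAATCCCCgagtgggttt
The NFKBIA stretch lies at chr14:35404811-35404840 on the minus strand, with the motif 81 to 72 bases before the start. The NFKBIB stretch lies at chr19:38899931-38899960, the NFKB1 stretch at chr4:102501300-102501329, the NFKB2 stretch at chr10:102394461-102394490 and the REL stretch at chr2:60881517-60881546, all on the plus strand. Their motifs begin 28, 49, 107 and 47 bases before the start. The TNFAIP3 and BIRC3 stretches, also on the plus strand, lie at chr6:137867182-137867211 and chr11:102317275-102317304, with motifs that begin 67 and 199 bases before the start. NFKB2 held the most sites, 4 in 2 of its 3 windows. TNFAIP3 and BIRC3 each held 2. A match describes the letters in the window only, and binding was not measured.

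The values are FPKM, fragment numbers divided by transcript length and library size, which were not corrected for the composition of the library. From the FPKM steps of genes with 1 annotated transcript, the libraries held about 16.1 M fragments for DMSO, 20.4 M at 2.5 μM and 24.1 M at 5 μM, whereas the genes above 0 numbered 21862, 19352 and 17293. All 8 neuroendocrine markers examined were above 0 in each library, and their summed FPKM was 513 with DMSO, 221 with 2.5 μM and 192 with 5 μM. The labels call the cells prostatic adenocarcinoma. Of 8 luminal prostate markers, 6 did not exceed 1 FPKM in any library, and KLK2 was listed at 0 throughout. Of 8 leukocyte markers, 7 did not exceed 1 FPKM, with summed levels of 0.55 to 1.42 FPKM, and PTPRC, CD3E, MS4A1 and LYZ were listed at 0 in all 3 libraries. Of 8 stromal and endothelial markers 6 did not exceed 1 FPKM, with summed levels of 1.96 to 5.97 FPKM, of which CDH5 made up 4.92 FPKM in the DMSO library. The part of these marker changes in the results was not tested. In bulk RNA, fewer cells with a transcript and less of it per cell cannot be told apart.

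Of the 10 genes 9 were higher with 5 μM JG231 than with DMSO, and NFKBIA, NFKBIB and RELB were more than 4-fold higher at both doses. A gene was called higher or lower where it had an FPKM over 1 in either library and a log2 change beyond 0.25 on values with a pseudocount of 0.1 FPKM added. All 10 genes passed the FPKM filter. At 5 μM 9 of the 10 were higher and 0 lower, against 36.5% of 15765 genes higher and 45.1% lower in the whole table. At 2.5 μM 8 were higher and 1 was lower, against 36.4% of 15746 genes higher and 43.4% lower. Beyond a log2 change of 1 there were 4 of the 10 at 5 μM and 6 at 2.5 μM, against 14.7% and 12.9% of all genes, and 0 of the 10 were below -1, against 24.3% and 21.7%. With mitochondrial and small RNA genes left out of the scaling, NFKB1, NFKB2 and TNFAIP3 fell below 1 at 2.5 μM, at 0.94, 0.81 and 0.76. TNFAIP3 also did so at 5 μM, at 0.76. The median change of the 10 was 0.88 at 5 μM and 1.07 at 2.5 μM, while that of all genes passing the filter was -0.11 and -0.08. The genes were chosen with earlier results of these data known, so these shares describe them and support nothing more. The same DMSO library served both doses.

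**Figure D1:**
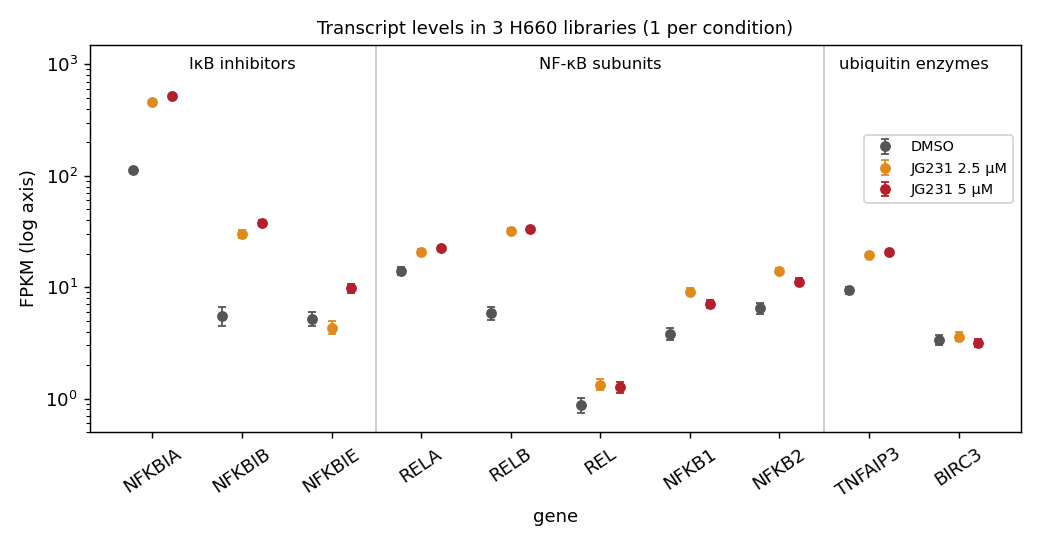
FPKM (log axis) of the 10 genes, grouped as IκB inhibitors, NF-kB subunits and ubiquitin enzymes, in the DMSO, 2.5 μM and 5 μM JG231 libraries, with 95% exact Poisson intervals that cover counting error only. NFKBIA lies far above the others in each library, from 112 FPKM with DMSO to 514 with the higher dose, and BIRC3 stays between 3.16 and 3.60.

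NFKBIA was the most abundant of the 10 transcripts in every library and REL the least abundant. In DMSO NFKBIA was followed by RELA and TNFAIP3. NFKB2, RELB, NFKBIB and NFKBIE then lay between 6.46 and 5.23 FPKM, with intervals that overlapped from each to the next. NFKB1 and BIRC3 could not be separated either. At 2.5 μM RELB and NFKBIB had moved above RELA, and their intervals overlapped. At 5 μM NFKBIB stood at 37.7 FPKM (95% Poisson interval 35.5 to 40.0) and RELB at 33.4 FPKM (31.9 to 34.95), and these intervals did not overlap. RELA and TNFAIP3 had overlapping intervals at both doses. These intervals rest on fragments computed from the length of the canonical transcript and cover counting error only, since PCR copies are not independent molecules.

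NFKBIA encodes IκBα, the inhibitor that NF-kB resynthesises first after activation. Its transcript (ENSG00000100906, chromosome 14, 35401079 to 35404749, minus strand) had 112 FPKM with DMSO, 460.0 with 2.5 μM and 514 with 5 μM. The DMSO library was the lowest and both JG231 libraries stood over 4-fold above it. The log2 change was 2.04 at 2.5 μM (95% counting interval 1.99 to 2.10) and 2.20 at 5 μM (2.15 to 2.26), at percentiles 95.8 and 95.8 of all genes passing the filter. Between the doses NFKBIA differed by 0.16. The 500 genes nearest to it in mean FPKM differed between the doses with a robust standard deviation of 0.19, called the dose spread here, which holds no variation of the DMSO library and is no replicate error. The counting intervals are those of the FPKM ratio without the pseudocount.

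NFKBIB encodes IκBβ, an inhibitor that is not classically a target of the NF-kB feedback loop. It had 5.54 FPKM with DMSO, 30.03 with 2.5 μM and 37.7 with 5 μM (ENSG00000104825, chromosome 19, 38899700 to 38908893). Its log2 change at 5 μM was 2.74 (95% counting interval 2.48 to 3.07), a 6.81-fold difference. At 2.5 μM its log2 change was 2.42 (2.15 to 2.75). The DMSO value rested on about 106 fragments, the fewest of any of the 10. The NFKBIB locus overlaps SIRT2 on the opposite strand by 163 bp in the annotation. SIRT2 had 2.87, 7.81 and 8.32 FPKM in the 3 libraries, and whether the authors' counting used the strand is not stated.

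NFKBIE encodes IκBε and was the 1 gene of the 10 whose changes at the 2 doses passed the threshold in opposite directions. It had 5.23 FPKM with DMSO, 4.34 with 2.5 μM and 9.76 with 5 μM (ENSG00000146232, chromosome 6, 44258166 to 44265788). The 5 μM library stood above the other two. The log2 change was -0.26 at 2.5 μM, with a 95% counting interval of -0.56 to 0.02 that reached 0, and 0.89 at 5 μM (0.66 to 1.14). The value at 2.5 μM lay just past the threshold, and it was within it at -0.22 both with a pseudocount of 1 and with libraries rescaled to a common sum. It was -0.55 with mitochondrial and small RNA genes left out of the scaling and -0.43 with the length trend removed. Between the doses the difference was 1.15 (0.94 to 1.41), a 2.25-fold difference, while genes of like level had a dose spread of 0.39. Of the 14197 genes compared between the doses, 7.47% were higher at 5 μM by more than 1.

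The summed FPKM of the IκB transcripts was 122 with DMSO, 494 with 2.5 μM and 562 with 5 μM. NFKBIA supplied between 91.2% and 93.0% of it in each library. The share of NFKBIB was 4.53% with DMSO, 6.07% with 2.5 μM and 6.71% with 5 μM, and that of NFKBIE was 4.27%, 0.88% and 1.74%. The share of NFKBIB was above that of NFKBIE in each library, and it was close to it only with DMSO.

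**Figure D2:**
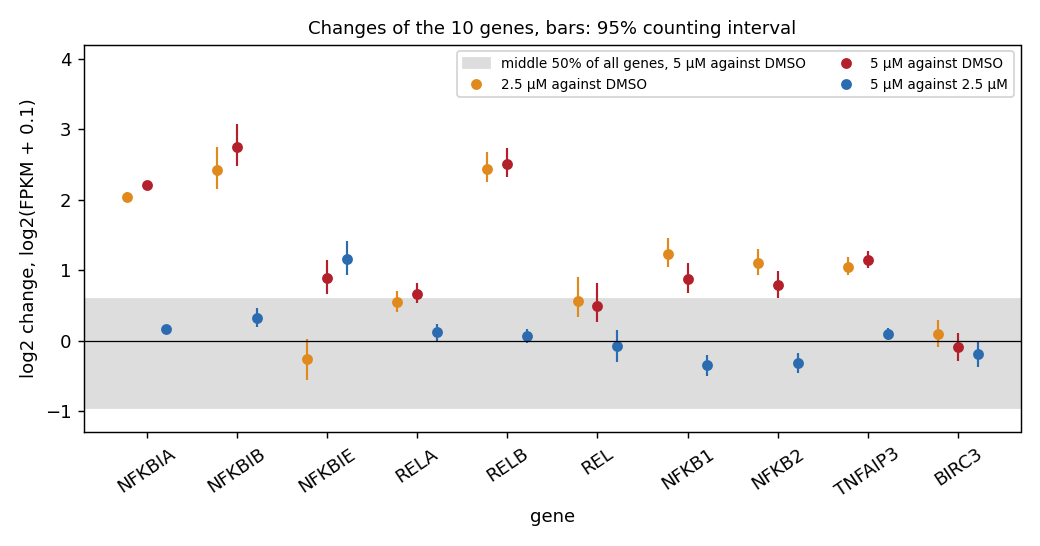
Log2 change of the 10 genes (vertical axis, log2 of FPKM + 0.1) at 2.5 μM against DMSO, at 5 μM against DMSO and at 5 μM against 2.5 μM, with 95% counting intervals, and in grey the middle 50% of all genes at 5 μM, from -0.96 to 0.59. NFKBIA, NFKBIB and RELB lie above 2 at both doses, and NFKBIE lies below 0 at 2.5 μM and at 0.89 at 5 μM.

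RELB differed most among the subunits. RELB, the Rel protein of the slower NIK branch, had 5.82 FPKM with DMSO, 32.0 with 2.5 μM and 33.4 with 5 μM (ENSG00000104856, chromosome 19, 45001461 to 45038192). Both JG231 libraries were more than 5-fold above DMSO and close to each other. The log2 change was 2.44 at 2.5 μM (95% counting interval 2.25 to 2.68) and 2.501 at 5 μM (2.32 to 2.74). The difference between the doses was 0.06 (-0.04 to 0.16).

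RELA, the main activating subunit of the fast branch, had 14.1 FPKM with DMSO, 20.6 with 2.5 μM and 22.3 with 5 μM (ENSG00000173039, chromosome 11, 65653599 to 65663090). It was higher in both JG231 libraries, with log2 changes of 0.55 (95% counting interval 0.40 to 0.70) and 0.66 (0.53 to 0.81). The non-coding gene AP001362.2 overlaps RELA on the opposite strand by 103 bp and had 3.09, 3.51 and 7.87 FPKM. REL, or c-Rel, a subunit best known from lymphoid cells, had 0.87, 1.33 and 1.26 FPKM (ENSG00000162924, chromosome 2, 60881491 to 60931612). Its log2 changes were 0.56 (95% counting interval 0.33 to 0.91) and 0.49 (0.26 to 0.82).

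NFKB1 and NFKB2 encode the precursors that are processed into the DNA-binding subunits without an activation domain, and the unprocessed precursors also act as inhibitors. NFKB1 had 3.81 FPKM with DMSO, 9.07 with 2.5 μM and 7.08 with 5 μM (ENSG00000109320, chromosome 4, 102501330 to 102617302). NFKB2 had 6.46, 14.0 and 11.2 FPKM (ENSG00000077150, chromosome 10, 102394110 to 102402524). For both precursor genes the 2.5 μM library was the highest and DMSO the lowest. Log2 changes were 1.23 and 0.88 for NFKB1 and 1.10 and 0.79 for NFKB2. From 2.5 to 5 μM NFKB1 differed by -0.35 (95% counting interval -0.51 to -0.21) and NFKB2 by -0.31 (-0.46 to -0.18), each about equal to the dose spread of genes of like level, 0.36 and 0.31.

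The makeup of the subunit transcripts differed between DMSO and JG231. Their summed FPKM was 31.0 with DMSO, 76.9 with 2.5 μM and 75.3 with 5 μM. RELA made up 45.3% of it in DMSO and RELB 18.8%, whereas in JG231 RELB made up 41.5% and 44.3% and RELA 26.8% and 29.7%. The RELB level per RELA level was 0.41 with DMSO, 1.55 with 2.5 μM and 1.49 with 5 μM. Summed IκB transcripts per summed subunit transcripts numbered 3.94 with DMSO, 6.43 with 2.5 μM and 7.46 with 5 μM. Such ratios within a library do not depend on how libraries are scaled, but they were not corrected for the trend of changes with transcript length. They concern RNA, and the protein levels were not measured in these libraries.

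**Figure D3:**
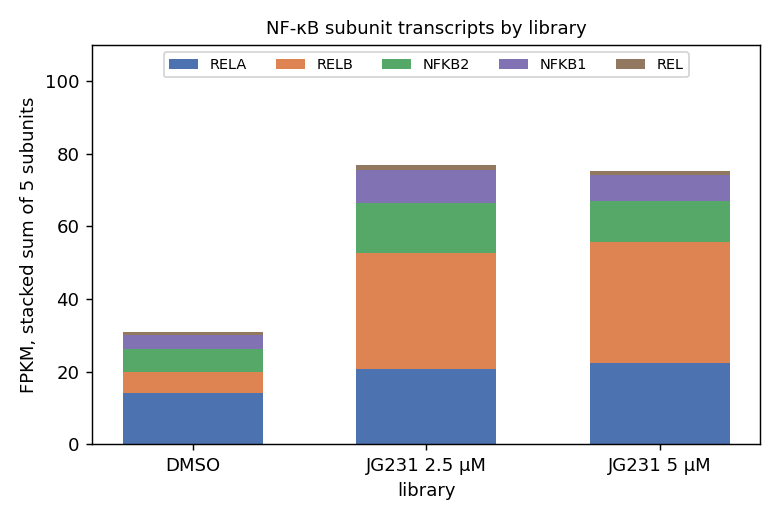
Stacked bars of the FPKM of the 5 NF-kB subunit genes in the DMSO, 2.5 μM and 5 μM JG231 libraries (vertical axis from 0, summed FPKM). The RELB segment grows from 5.82 to 32.0 and 33.4 FPKM, while the RELA segment goes from 14.1 to 20.6 and 22.3 FPKM.

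The ubiquitin enzymes TNFAIP3 and BIRC3 behaved differently. TNFAIP3, which removes activating ubiquitin chains upstream of the IκB kinase, had 9.41 FPKM with DMSO, 19.5 with 2.5 μM and 20.8 with 5 μM (ENSG00000118503, chromosome 6, 137867214 to 137883314). Both JG231 libraries were just over 2-fold above DMSO, with log2 changes of 1.05 (95% counting interval 0.93 to 1.18) and 1.14 (1.02 to 1.27). BIRC3, a ubiquitin ligase of the TNF receptor complex, had 3.37, 3.60 and 3.16 FPKM (ENSG00000023445, chromosome 11, 102317484 to 102339403). Its log2 changes of 0.10 (-0.09 to 0.30) and -0.09 (-0.29 to 0.10) were within counting error. BIRC3 was the only 1 of the 10 inside the threshold at both doses as deposited. With the length trend removed it was 0.30 at 2.5 μM and 0.29 at 5 μM, past the threshold, so that 9 and 10 of the 10 were higher. With mitochondrial and small RNA genes left out of the scaling it was lower at 5 μM, at -0.46. Its promoter window held 2 motif matches, as did that of TNFAIP3.

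Between the doses, a comparison that does not use the DMSO library, most of the 10 differed little. NFKBIB and NFKBIE were higher at 5 μM than at 2.5 μM, NFKB1 and NFKB2 were lower, and 6 were within the threshold, against 26.8% of all genes higher and 30.1% lower. Beyond 1 only NFKBIE was higher and 0 were lower, against 7.47% of all genes higher and 8.09% lower by more than 1, and with a common FPKM sum NFKBIE was at 0.975. BIRC3 became lower, at -0.36 with that sum and -0.27 without mitochondrial and small RNA genes, so that 1 of the 10 was higher and 3 were lower on each scale. The NFKBIB difference of 0.33 fell within the threshold under both rescalings, at 0.15 with a common FPKM sum and 0.24 without mitochondrial and small RNA genes, and at 0.19 with the length trend removed. The median difference was 0.08 for the 10 and -0.02 for all genes passing the filter, and for the 10 it turned to -0.10 with a common FPKM sum and -0.01 without mitochondrial and small RNA genes.

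The changes of the 10 genes were also set against transcript length and library scaling, since both moved with treatment over the whole table. Among protein-coding genes the shortest 10%, with a median length of 944.5 bp, changed by a median of 0.61 at 5 μM, and the longest 10%, with 9227.5 bp, by -0.52. NFKBIB and NFKBIA have short transcripts of 1192 and 1559 bp, while those of BIRC3 and REL measure 6877 and 11108 bp. With the length trend removed the 5 μM changes were 2.24 for NFKBIB, 1.80 for NFKBIA and 2.25 for RELB, while REL moved to 1.07 and BIRC3 to 0.29. Mitochondrial and small RNA genes made up 40.4% of the FPKM sum with DMSO, 24.6% with 2.5 μM and 29.2% with 5 μM. Rescaling the libraries without them brought the median of the 13785 genes averaging 1 FPKM or more to -0.38 at 5 μM and -0.28 at 2.5 μM, from -0.01 and 0 as deposited. Over the whole table, higher genes then made up 27.7% instead of 44.7% of the called genes at 5 μM, and 30.4% instead of 45.6% at 2.5 μM. On that scale 8 of the 10 genes were still higher at 5 μM, with changes of 1.82 for NFKBIA, 2.37 for NFKBIB, 2.12 for RELB and 0.76 for TNFAIP3. RELA then had 0.29 and REL 0.14, and BIRC3, at -0.46, was lower. The part of RNA length or composition in these changes was not tested.

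**Figure D4:**
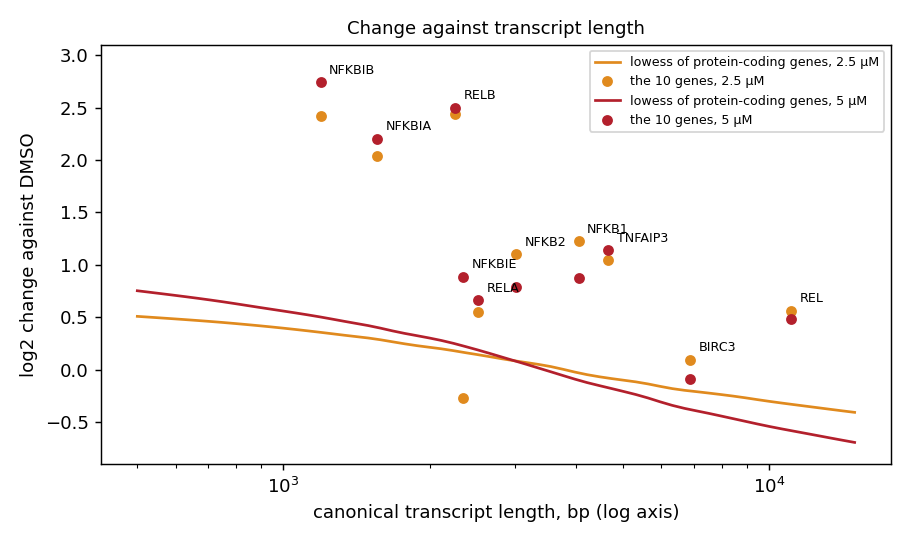
Log2 change against DMSO (vertical axis) and canonical transcript length in bp (log axis) of the 10 genes at both doses, with the lowess trend of 11200 protein-coding genes. The trends fall with length, and NFKBIA, NFKBIB and RELB lie at least 1.75 above them at both doses, while NFKBIE at 2.5 μM lies below.

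Other genes of the pathway were counted by role, in 7 lists of 119 genes. Of the 83 that passed the filter at 5 μM, 47 were higher and 19 lower, and of 84 at 2.5 μM, 55 were higher and 22 lower. In the libraries rescaled without mitochondrial and small RNA genes 34 were higher and 32 lower at 5 μM, and 44 and 26 at 2.5 μM. As deposited, 36.5% of all genes were higher and 45.1% lower at 5 μM, and 36.4% and 43.4% at 2.5 μM. In the rescaled libraries 3710 of all genes were higher and 9704 lower at 5 μM, and 3976 and 9083 at 2.5 μM. The rescaled median of genes averaging 1 FPKM or more was -0.38 at 5 μM and -0.28 at 2.5 μM. The median change of the pathway genes was 0.35 at 5 μM and 0.61 at 2.5 μM, and in the rescaled libraries -0.03, a change of sign, and 0.32. Without an expression filter the medians were 0.041 and 0.27, with 52 higher and 32 lower at 5 μM, and among genes averaging 5 FPKM or more the median at 5 μM was 0.71.
Among 12 ligands 3 passed the filter, and all 3 were higher at both doses as deposited, but 2 of the 3 at 5 μM in the rescaled libraries. TNF, the best known activator of the fast branch, had 2.08 FPKM with DMSO, 6.27 with 2.5 μM and 10.2 with 5 μM. TNFSF12, which encodes TWEAK, had 1.92, 3.37 and 6.52 FPKM, and LTB, a lymphotoxin subunit that signals to the NIK branch, had 3.48, 7.87 and 4.41 FPKM. Its change of 0.33 at 5 μM was within counting error (95% counting interval -0.16 to 0.87), and it was -0.26 with the length trend removed. The interleukin-1 gene IL1B was listed at 0 in all 3 libraries.
Of 19 receptors 8 passed the filter, and the list moved in both directions, with 3 higher and 2 lower at 5 μM and 5 and 2 at 2.5 μM. The receptor median was -0.12 with 5 μM and 0.33 with 2.5 μM, and in the rescaled libraries, where 3 were higher and 5 lower at 5 μM and 3 and 3 at 2.5 μM, it was -0.48 and 0.05. TNFRSF12A, the TWEAK receptor, had 6.02 FPKM with DMSO, 60.4 with 2.5 μM and 77.2 with 5 μM, log2 changes of 3.31 and 3.66. LTBR, the lymphotoxin receptor, had 5.12, 12.4 and 10.4 FPKM. TNFRSF1B, the second TNF receptor, went the other way, with 50.5, 13.0 and 10.5 FPKM and log2 changes of -1.95 and -2.25. The main TNF receptor gene TNFRSF1A was within the threshold at 5 μM, with 9.08, 11.4 and 8.82 FPKM.

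**Figure D5:**
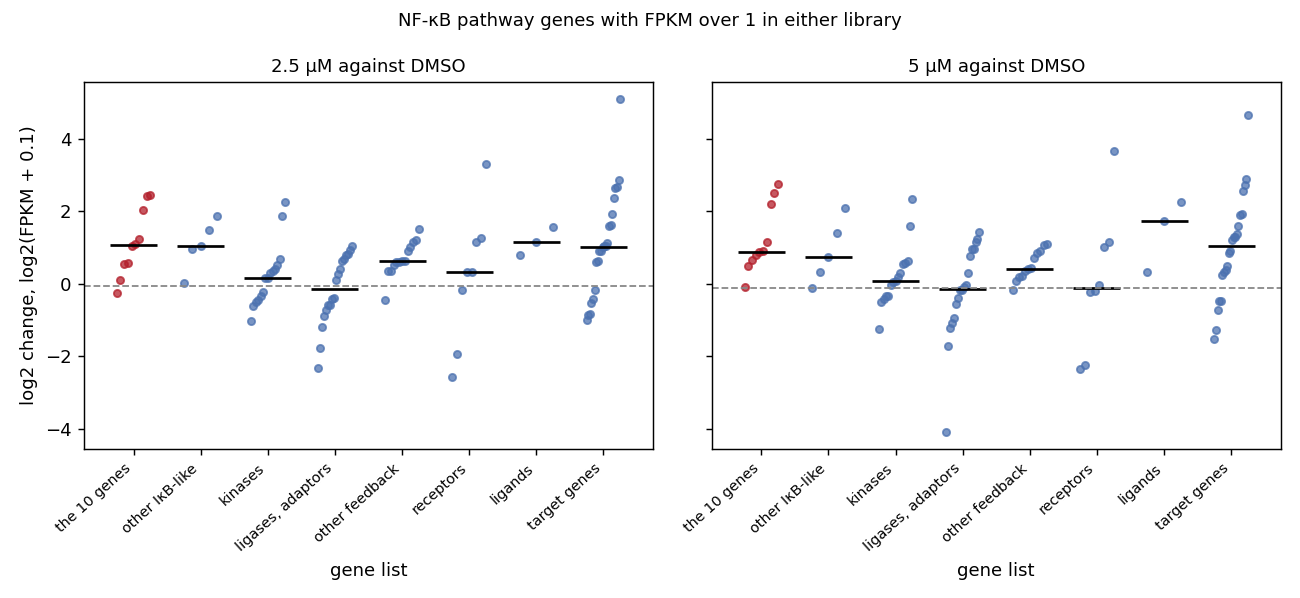
Log2 change against DMSO (vertical axis) of genes with an FPKM over 1 in either library, by list, at 2.5 μM (left) and 5 μM (right), with a black bar at each list's median and a dashed line at the median of all genes, -0.08 and -0.11. Target genes have medians of 1.01 and 1.05, kinases of 0.16 and 0.07 and ligases and adaptors of -0.14 at both doses.

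All 15 kinases of the list passed the filter, with 6 higher and 5 lower at 5 μM and 7 and 5 at 2.5 μM, a share of higher genes near that of the whole table at 5 μM. In the rescaled libraries 2 kinases were higher and 8 lower at 5 μM, and 3 and 6 at 2.5 μM. Their medians of 0.07 at 5 μM and 0.16 at 2.5 μM became -0.30 and -0.12. Rescaling gave lower medians for all genes averaging 1 FPKM or more, -0.38 with 5 μM and -0.28 with 2.5 μM. Over the whole table, higher calls then formed 27.7% of the called genes with 5 μM and 30.4% with 2.5 μM. RIPK2, the kinase of the NOD receptors, had 24.7, 89.5 and 74.5 FPKM, and IRAK2, of the interleukin-1 receptor complex, had 0.39, 2.24 and 2.39 FPKM. RIPK1, the scaffold kinase of the TNF receptor complex, was lower, with 16.2, 7.81 and 6.79 FPKM. The IκB kinase subunits, named here for their role and outside the rule for named genes, did not move together. CHUK had 3.98, 6.47 and 6.18 FPKM, IKBKB had 5.98, 3.89 and 4.41 FPKM, and IKBKG, which has a near-identical pseudogene, had 2.52, 1.82 and 2.85 FPKM.
Of 20 ligases and adaptors 18 passed the filter. At 5 μM 7 were higher and 7 lower, shares near those of the whole table, and at 2.5 μM 8 and 9. Their median of -0.14 at each dose became -0.51 at 5 μM and -0.42 at 2.5 μM in the rescaled libraries. Both lay below the rescaled median of all genes averaging 1 FPKM or more. BCL10, an adaptor of the CARD and MALT1 complex, had 5.81, 12.0 and 15.8 FPKM, and TRAF6, the ligase of the interleukin-1 branch, had 2.07, 3.65 and 4.98 FPKM. TRADD, the adaptor of the TNF receptor, had 6.88, 4.55 and 2.87 FPKM. TIRAP, the lowest point of this list at 5 μM and also named after its values were seen, had 1.61 and 0.642 FPKM and was listed at 0 in the 5 μM library.

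The other IκB-like genes and feedback regulators had positive medians. Over all genes as deposited 36.5% were higher and 45.1% lower at 5 μM, and 36.4% and 43.4% at 2.5 μM. In the rescaled libraries higher genes made up 27.7% of all called genes at 5 μM and 30.4% at 2.5 μM. Of 5 IκB-like genes 4 were higher at 5 μM and none lower as deposited, with a median of 0.73. In the rescaled libraries 3 were higher and 1 lower, with a median of 0.35. NFKBIL1, an IκB-like gene of the major histocompatibility region, had 11.2, 41.0 and 47.6 FPKM, BCL3, a nuclear IκB protein, had 9.97, 27.9 and 26.3 FPKM, and NFKBIZ, another nuclear IκB, had 4.73, 9.82 and 7.89 FPKM. Of 16 other feedback regulators 12 passed the filter at 5 μM, with 8 higher and none lower as deposited and a median of 0.40, and with 5 higher and 2 lower and a median of 0.03 in the rescaled libraries. At 2.5 μM 12 of 13 were higher and 1 lower with a median of 0.62, and 9 were higher and 1 lower with a median of 0.33 in the rescaled libraries. TNIP1, which binds A20, had 20.1, 40.6 and 42.5 FPKM, and PELI1, a ubiquitin ligase, had 14.3, 32.9 and 30.4 FPKM. CYLD, a deubiquitinase, had 0.480, 1.54 and 0.998 FPKM.
Of 32 known NF-kB target genes, 22 passed the filter, with 16 higher and 5 lower at each dose, of which 15 were higher and 4 lower at both doses. Over all genes 36.5% were higher and 45.1% lower at 5 μM, and 36.4% and 43.4% at 2.5 μM. The target medians were 1.05 at 5 μM and 1.01 at 2.5 μM, and 0.68 and 0.73 in the rescaled libraries. There 13 targets were higher and 5 lower at 5 μM, and 16 and 6 at 2.5 μM. CXCL8, the neutrophil chemokine interleukin-8, had 32.5 FPKM with DMSO, 207 with 2.5 μM and 215 with 5 μM. PLAU, the urokinase gene, had 177, 1290.3 and 1049.9 FPKM, and GADD45B had 3.49, 22.04 and 26.4 FPKM. The highest point of the target list, CSF2, named after its values were seen, had 0.237, 11.4 and 8.40 FPKM, with about 3 fragments in the DMSO library. CD83, CFLAR, SOD2 and CCL20 were lower at both doses. The lowest point at 5 μM, TNFAIP2, had 2.73, 2.42 and 0.876 FPKM. Many genes of the target list are also targets of other stress-responsive factors, and 10 of the 32 did not pass the filter, IL6, VCAM1 and SELE among them.

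The 5 protein-coding genes most like NFKBIA in their changes were NAB2, IL32, USE1, DNAJB9 and RNF187, by Euclidean distance over the log2 changes at the 2 doses among 7044 genes averaging 5 FPKM or more. Their distances were 0.03 to 0.08 on the log2 scale, and 33 genes lay within 0.25. IL32, a cytokine gene, had 11.9, 48.7 and 57.3 FPKM, and NAB2, a corepressor of early growth response factors, had 11.0, 44.7 and 51.2 FPKM. Such likeness over 3 libraries describes the values only.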

How the data were processed

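RNA-seq of parental H660 cells, 1 library per condition, was analysed as FPKM. The authors deposited FPKM values. The study's methods name HISAT and StringTie and also a Top Hat-Cufflinks pipeline. The submitters' processing notes list HISAT2, featureCounts, GRCh38 and hg38, without roles or versions, so which tools made the table is unclear. Of the 58735 rows, 58207 had an identifier in GENCODE 44 (GRCh38). FPKM are not counts, so no count model was fitted. With 1 library per condition no test was run. The 10 genes and the lists were chosen with earlier results of these data known.

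Log2 changes used a pseudocount of 0.1, which understates changes of low genes. A gene was called with an FPKM over 1 in either library and an absolute change over 0.25. The value of 1 fragment was read from the steps of FPKM times exon length, using genes of 1 transcript and under 50 fragments, where 90.3%, 87.9% and 86.4% of values lay within 0.1 of a whole fragment. Fragments of a gene used its canonical transcript length and are approximate. Counting intervals were exact (Clopper-Pearson for ratios, Poisson for levels). The length trend was a lowess fit with a fraction of 0.3 over 11200 protein-coding genes averaging 1 FPKM or more.

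Named were the 10 genes, in each other list up to 3 genes with the largest change at 5 μM among those averaging 1 FPKM or more, with the same sign at both doses and over 3 fragments in every library, and the 5 genes most like NFKBIA. Genes named outside this rule are marker genes, CHUK, IKBKB, IKBKG, TNFRSF1A, IL1B, IL6, VCAM1, SELE, CSF2, TIRAP, CD83, CFLAR, SOD2, CCL20 and TNFAIP2, and SIRT2 and AP001362.2 for their overlap. They were chosen after their values were seen. Other pseudocounts, filters, thresholds, scalings, the length correction, the sum of rows that share a symbol and the removal of genes at 0 were tried as alternatives. The scripts were tested on simulated data. The software was statsmodels 0.14.6 for lowess, scipy 1.17.1 for intervals, matplotlib 3.10.9 for plots, and pandas 2.3.3 and numpy 2.4.6 under Python 3.11.15.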

Additional observations from a re-analysis of the deposited data

Results flagged for a closer look

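NFKBIE stood out because its changes against DMSO passed the threshold in opposite directions at the 2 doses, with -0.26 at 2.5 μM and 0.89 at 5 μM on the log2 scale. The difference between the doses was not tested, since each dose has 1 library. The value at 2.5 μM rested on about 207 fragments and its 95% counting interval reached 0. With a pseudocount of 1 or a common FPKM sum it was -0.22, within the threshold, and it was -0.55 with mitochondrial and small RNA genes left out of the scaling and -0.43 with the length trend removed.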

How the results depend on the processing

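NFKBIA, NFKBIB, RELB, RELA, REL, NFKB1, NFKB2 and TNFAIP3 were above DMSO at both doses with the other pseudocounts, scalings, centring and length correction, without genes at 0 and with rows summed by symbol, while BIRC3 changed sign, at 5 μM to 0.29 with the length trend removed and at 2.5 μM to -0.19 with mitochondrial and small RNA genes left out of the scaling. The count of the 10 genes lower at 2.5 μM, 1 as reported, which was NFKBIE, was 0 with a pseudocount of 1, with a threshold of 1 and when rescaled to a common sum. With a threshold of 1, 4 of the 10 were higher at 5 μM, and between the doses 1 was higher and 0 lower. Rescaled to a common sum, 1 was higher and 3 lower between the doses and the median difference was -0.10. Rescaled without mitochondrial and small RNA genes, 1 of the 10 was lower at 5 μM, the medians were 0.51 at 5 μM and 0.79 at 2.5 μM, and between the doses 1 was higher and 3 lower. With the length trend removed 10 of the 10 were higher at 5 μM and 9 at 2.5 μM, and between the doses 1 was higher and 2 lower. For the other pathway lists, rescaling without mitochondrial and small RNA genes gave 32 lower genes and a median of -0.028 at 5 μM, which reversed its sign, and a median of 0.32 at 2.5 μM. The median of all genes averaging 1 FPKM or more was then -0.38 at 5 μM and -0.28 at 2.5 μM. A mean FPKM of at least 5 gave 7 lower genes at each dose and a median of 0.71 at 5 μM. No expression filter gave 32 lower genes and a median of 0.041 at 5 μM, and one of 0.27 with 2.5 μM. A threshold of 1 gave 25 higher and 9 lower at 5 μM, and 27 and 6 at 2.5 μM. Beyond the construction of each alternative, the cause was not tested. Leaving out a replicate was not possible with 1 library per condition. No paired analysis was possible because each condition has 1 library and no test was run. Depth limits NFKBIB in DMSO, at about 106 fragments, and REL at its low level.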

Other observations

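Over all genes outside the 10, the shares of higher genes were close with and without a κB motif in a promoter window. Of 867 genes with a motif and an FPKM over 1 in either library at 5 μM, 37.6% were higher and 39.1% lower, against 38.4% and 39.8% of 8986 genes with windows and no motif. At 2.5 μM the shares were 40.3% and 35.4% of genes with a motif, against 38.3% and 37.4% of 8954 without. Among 118 genes with 2 or more matches, 39.8% were higher and 37.3% lower at 5 μM. The 300-base windows leave out distal sites, and these shares were computed after the values of the 10 genes were known.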
